A study of Mus musculus with 1 sample.

Results

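Collagens are the main structural proteins of the extracellular matrix, and their genes were followed here across the cells of MC38 tumors. The members were all genes of the deposited gene list whose symbol is Col, 1 or 2 digits, the letter a and further digits, which gave 44 genes of 32285. The study asked how ATP6V0A1, a subunit of the proton pump V-ATPase, in colorectal cancer cells changes the immune cells around them. The library analysed holds cells of 5 tumors grown from the mouse colon carcinoma line MC38 in C57BL/6J mice, mixed before sequencing. Its label gives the genotype WT and names no shRNA, and it was taken as the control (shNTC) pool; the Atp6v0a1 knockdown pool was not analysed here. All values come from this 1 library, so no comparison has a replicate, no test between animals was possible, and each interval given is a 95% interval of counting error only.

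A collagen molecule is wound from 3 chains, each made from a gene of its own or shared with another type. Fibrillar collagens (types I, II, III, V, XI, XXIV and XXVII) give tissue its tensile strength, and type V regulates the width of type I and III fibrils. Type IV forms the sheet of the basement membrane under blood vessels and epithelia, type VI forms beaded filaments around cells, and types XII, XIV and XVI attach to the surface of fibrils. In tumors, fibroblasts are known as the main source of fibrillar collagen, and vessels as a main source of type IV.

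Levels are given as a gene's UMIs (distinct captured transcript molecules) summed over a cell group per 1000000 UMIs of that group (CPM). The library held 5307 called cells with 511 to 231902 UMIs and a median of 9248, and 4443 cells with 93439688 UMIs passed the filters. No collagen gene entered the clustering, but a second clustering of the tumor cells was made because no cluster of the first reached the Col3a1 limit, so a collagen level had a part in which clustering was kept; at a resolution of 0.8 no such cluster was found. Tumor cells were the 1811 cells of clusters rich in Shisal2b and Rhox5; with only these 2 markers, and with the epithelial keratin Krt8 at 0.0931 CPM, the epithelial label of the line rests on the label alone. Xist, which is transcribed from the inactive X chromosome of female cells, was at 4.37 and 2.84 CPM in the 2 tumor groups described next and at 514 to 1099 CPM in the fibroblast-, pericyte-, endothelial-, myeloid- and T and NK-like cells. One tumor cluster of 449 cells had Col3a1 at 3.14 times the level of the other tumor cells and is called Col3a1-high, and the other 1362 tumor cells Col3a1-low. The host groups were named from marker lists that hold no collagen, with 10 of 10 fibroblast genes raised in 37 cells, 8 of 8 pericyte genes in 10 cells, 9 of 9 endothelial genes in 38 cells, 8 of 8 myeloid genes in 1302 cells and 7 of 7 T and NK genes in 147 cells. A further 1098 cells, many of them shallow, took other names or none.

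Promoter sequences of 4 collagens on which the results turn are shown first, from RefSeq with the GRCm38.p6 build, from 250 bases before to 50 after the start. Col3a1 and Col1a2 are shown because tumor cells held much of the first transcript and little of the second. Both strands were searched for the letters CCAAT, known as the CCAAT box. They were also searched for TATAAA, the core of the TATA box, and for GGGCGG, known as the GC box. Capitals mark the matches, and no match overlaps another motif. The Col3a1 window lies on chr1:45311288-45311587 (+ strand) and the Col1a2 window on chr6:4505368-4505667 (+ strand).
Col3a1: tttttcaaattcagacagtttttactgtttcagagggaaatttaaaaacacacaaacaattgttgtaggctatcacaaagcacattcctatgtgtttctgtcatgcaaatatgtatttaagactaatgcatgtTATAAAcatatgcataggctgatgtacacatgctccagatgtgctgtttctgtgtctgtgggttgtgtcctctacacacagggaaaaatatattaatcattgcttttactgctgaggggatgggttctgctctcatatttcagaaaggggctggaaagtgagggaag
Col1a2: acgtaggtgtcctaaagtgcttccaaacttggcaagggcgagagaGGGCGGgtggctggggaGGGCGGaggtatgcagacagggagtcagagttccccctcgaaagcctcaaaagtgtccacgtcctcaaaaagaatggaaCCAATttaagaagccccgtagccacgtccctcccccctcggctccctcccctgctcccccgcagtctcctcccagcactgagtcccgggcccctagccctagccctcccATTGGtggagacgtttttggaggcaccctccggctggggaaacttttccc
The Col3a1 window held 1 TATAAA, 0 CG dinucleotides and 37.7% G and C. The Col1a2 window held 2 CCAAT, 2 GGGCGG, 13 CG dinucleotides and 61.0% G and C. Of all 32851 promoter windows, 37.4% held CCAAT, 13.6% TATAAA and 35.7% GGGCGG, and the median window had 7 CG dinucleotides and 52.7% G and C. These matches describe the letters and say nothing of a factor bound there. Their distance from the start was not used, so the TATAAA of the Col3a1 window is not read as a working TATA box.

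Col4a1 and Col4a2 are shown because they lie head to head on chromosome 8 and encode the 2 chains of the common type IV molecule. Their annotated genes overlap by 22 bases, so the pair is transcribed outward from 1 stretch. The windows are chr8:11312777-11313076 (- strand) and chr8:11312555-11312854 (+ strand), and capitals mark the 78 bases that both windows hold, read on opposite strands.
Col4a1: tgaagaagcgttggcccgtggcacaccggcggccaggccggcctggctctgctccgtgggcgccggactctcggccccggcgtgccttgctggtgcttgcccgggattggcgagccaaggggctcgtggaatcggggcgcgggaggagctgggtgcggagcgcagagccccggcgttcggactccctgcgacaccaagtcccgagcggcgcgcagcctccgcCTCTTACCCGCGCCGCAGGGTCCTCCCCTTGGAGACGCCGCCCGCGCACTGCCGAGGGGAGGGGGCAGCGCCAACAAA
Col4a2: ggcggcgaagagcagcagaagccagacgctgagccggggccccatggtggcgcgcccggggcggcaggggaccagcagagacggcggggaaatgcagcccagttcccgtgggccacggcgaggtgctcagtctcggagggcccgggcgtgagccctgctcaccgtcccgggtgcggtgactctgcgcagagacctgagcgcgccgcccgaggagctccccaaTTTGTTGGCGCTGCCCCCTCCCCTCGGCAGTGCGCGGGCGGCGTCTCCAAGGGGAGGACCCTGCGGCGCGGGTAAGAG

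Of the 44 members, 40 had a UMI in the kept cells and 21 had at least 50. The other 23 members summed to 209 UMIs, with at most 42 for one gene, and Col9a1, Col9a2, Col19a1 and Col4a6 were at 0. All members together made 242646 UMIs, of which 89.0% lay in tumor cells, which also held 80.4% of all UMIs, and 6.32% in the 37 fibroblast-like cells, which held 0.287%. Per 1000000 UMIs the order was different. Collagens reached 57211 CPM (interval 56309 to 58124) in fibroblast-like, 17660 (16961 to 18380) in pericyte-like and 6680 (6186 to 7204) in endothelial-like cells. The grouping moved these levels far more than counting error: with no mitochondrial limit the fibroblast-like level was 29444 CPM, over 89 cells, and the 10 pericyte-like cells were not separated with that setting or with 10 neighbors in place of 6. Col3a1-high tumor cells had 5060 CPM (5020 to 5099) and Col3a1-low tumor cells 2433 (2420 to 2445). Myeloid-like cells, at 346 CPM (336 to 356), and T and NK-like cells, at 397 (353 to 444), lay below every stromal and tumor group.

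**Figure D1:**
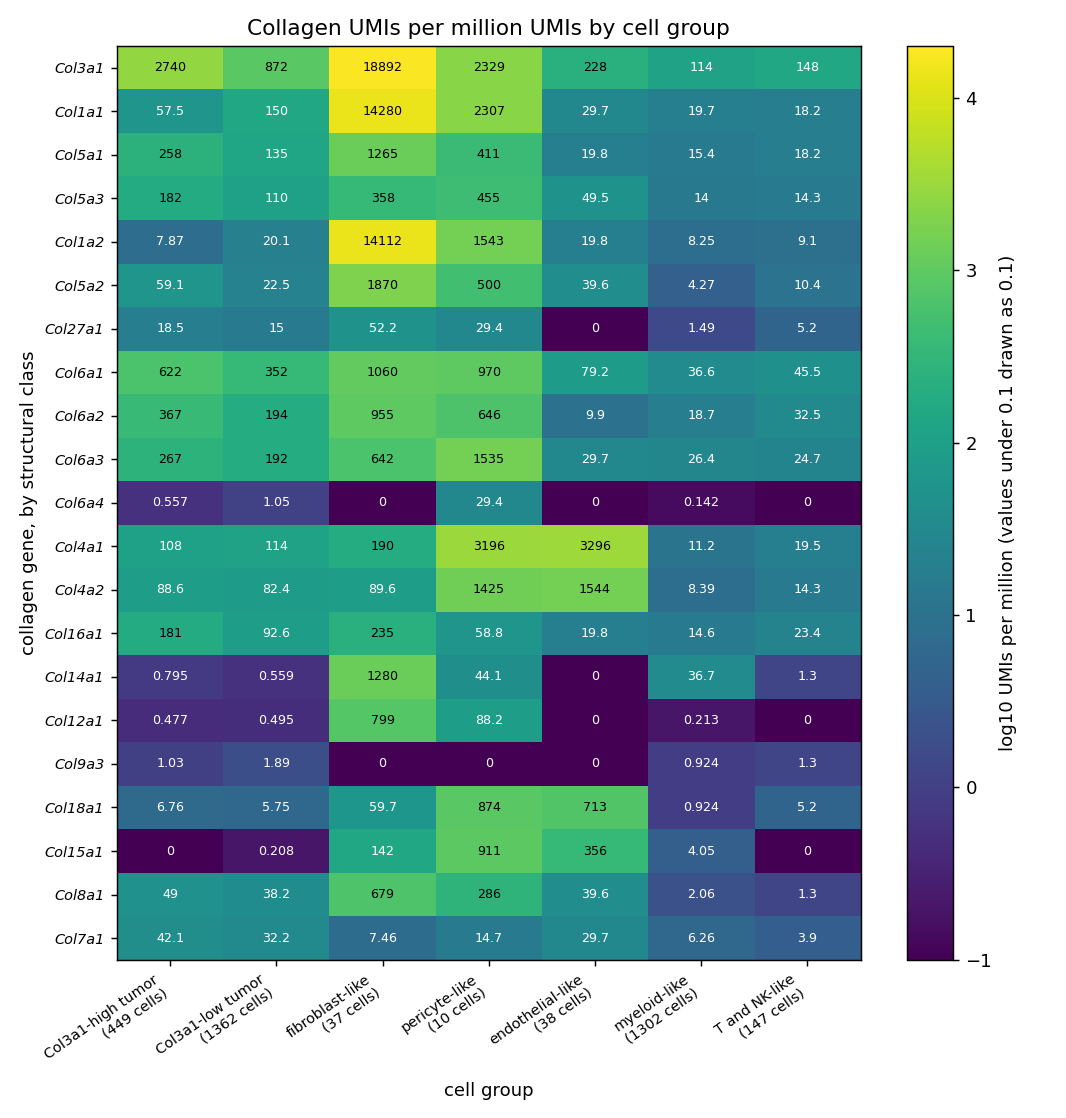
UMIs per 1000000 UMIs of the 21 collagens with at least 50 UMIs (rows, ordered by structural class) in 7 cell groups of 1 library (columns), printed in each field and colored on a log10 scale. Col3a1, Col1a1 and Col1a2 are highest in fibroblast-like cells (18892, 14280 and 14112), and Col4a1 in endothelial-like and pericyte-like cells (3296 and 3196).

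The make-up of the family differed between groups. Fibrillar genes gave 89.0% of the collagen UMIs of fibroblast-like cells, 65.7% of those of Col3a1-high and 54.4% of those of Col3a1-low tumor cells, and 5.78% of those of endothelial-like cells. The type IV genes gave 72.4% in endothelial-like and 26.2% in pericyte-like cells but 0.502% in fibroblast-like cells. The type VI class gave 24.9% and 30.4% in the Col3a1-high and Col3a1-low tumor cells and 4.66% in fibroblast-like cells. Col3a1 was the most abundant collagen of both tumor groups, with 54.1% and 35.9% of their collagen UMIs, followed by Col6a1.

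Among the 21 members with at least 50 UMIs, 12 had their highest level in fibroblast-like cells, 5 in pericyte-like, 2 in endothelial-like and 1 in each tumor group. For 9 of the 12 fibroblast-like members the interval of the ratio to the next group excluded 1, but for Col6a1, Col16a1 and Col27a1 it did not. The interval excluded 1 for 3 of the 5 pericyte-like members, not for Col5a3 and Col18a1, and for 0 of the 2 endothelial-like members. Col7a1, the chain of the anchoring fibrils that tie epithelium to dermis, was the member highest in Col3a1-high tumor cells, at 42.1 CPM (38.6 to 45.8) against 32.2 (30.8 to 33.7) in Col3a1-low tumor cells and 7.46 (0.904 to 27.0, from 2 UMIs) in fibroblast-like cells. Endothelial-like cells had 29.7 CPM of Col7a1 (6.12 to 86.8) and pericyte-like cells 14.7 (1.78 to 53.1). Both intervals include 42.1, so the rank over these groups was not settled. Col9a3, a chain of the fibril-associated type IX, was the member highest in Col3a1-low tumor cells, at 1.89 CPM (1.56 to 2.26) against 1.03 (0.5503 to 1.77) in Col3a1-high cells. Its next group was the T and NK-like cells, at 1.30 CPM. The ratio to them was 1.45, with an interval that included 1 (0.255 to 57.8), so this rank was not settled. Col6a4, a type VI chain, was highest in pericyte-like cells, at 29.4 CPM from 4 UMIs, with 1.05 in Col3a1-low and 0.557 in Col3a1-high tumor cells. Col27a1, a fibrillar chain, was at 52.2 CPM (28.6 to 87.7) in fibroblast-like, 18.5 in Col3a1-high and 15.005 in Col3a1-low tumor cells. Col8a1, a short chain collagen of vessel walls, was at 679 CPM in fibroblast-like, 286.5 in pericyte-like, 48.97 in Col3a1-high and 38.2 in Col3a1-low tumor cells.

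Type I collagen, the most abundant protein of skin and bone, is made of Col1a1 and Col1a2 chains. Col1a1 was at 14280 CPM in fibroblast-like and 2307 in pericyte-like cells, at 57.5 in Col3a1-high and 149.57 in Col3a1-low tumor cells, and at 19.7 in myeloid-like and 18.2 in T and NK-like cells. Col1a2 was at 14112 CPM in fibroblast-like and 1543 in pericyte-like cells, but at 7.87 (6.397 to 9.58) in Col3a1-high tumor cells. Myeloid-like cells had 8.25 (6.82 to 9.89) and T and NK-like cells 9.10 (3.66 to 18.8) CPM of Col1a2. The Col1a2 level of Col3a1-high tumor cells was therefore no higher than in leukocytes per 1000000 UMIs. Its 99 UMIs were unevenly spread, with 81.8% in 45 of the 449 cells and at most 8 in 1 cell, and the part of free RNA in them was not tested. In Col3a1-low tumor cells Col1a2 was at 20.1 CPM (19.0 to 21.2), and 9 of the 1811 tumor cells held 278 of the 1357 tumor UMIs of the gene.

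The chains were set against each other as UMIs per UMI; the chemistry reads 3' ends, so no length scaling was applied, and capture may differ between genes, which leaves the comparison between groups. Fibroblast-like cells had 0.988 Col1a2 UMIs per Col1a1 UMI (0.945 to 1.03) and pericyte-like cells 0.669 (0.559 to 0.799). Col3a1-high tumor cells had 0.137 (0.110 to 0.169) and Col3a1-low tumor cells 0.134 (0.127 to 0.143), and without the 9 Col1a2-rich cells all tumor cells had 0.110 (0.104 to 0.118). The intervals of the tumor groups overlapped each other and lay below those of fibroblast- and pericyte-like cells. Myeloid-like cells, at 0.419 (0.334 to 0.522), lay between them.

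**Figure D2:**
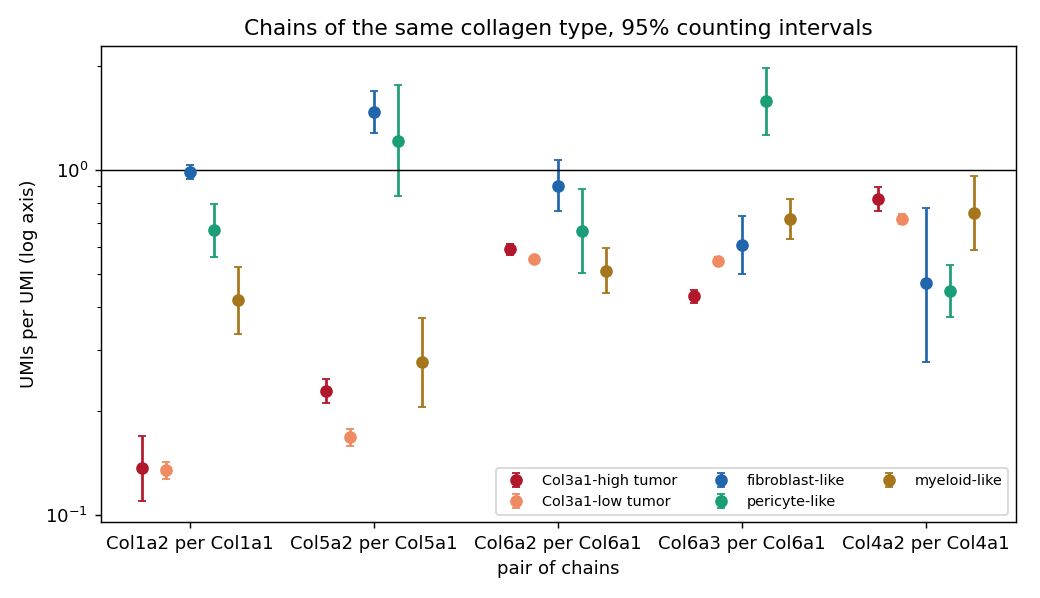
UMIs of one chain per UMI of a partner chain of the same collagen type (vertical log axis) in 5 cell groups, with 95% counting intervals. For Col1a2 per Col1a1 and Col5a2 per Col5a1 both tumor groups lie below the fibroblast- and pericyte-like cells (0.137 and 0.134 against 0.988 and 0.669 for type I).

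Type V collagen nucleates the fibrils of types I and III. Col5a1 was at 1265 CPM in fibroblast-like, 258 in Col3a1-high and 135 in Col3a1-low tumor cells, whereas Col5a2, which lies tail to tail with Col3a1 at a distance of 24614 bases on chromosome 1, was at 1869.5, 59.1 and 22.5 CPM. Col5a2 per Col5a1 UMI was 1.48 (1.29 to 1.70) in fibroblast-like, 0.229 (0.211 to 0.248) in Col3a1-high and 0.168 (0.158 to 0.177) in Col3a1-low tumor cells. Col5a3 was at 358, 182 and 109.6 CPM in the same groups. So Col1a2 and Col5a2 were both low against their partner chain in tumor cells. Type VI differed less between the groups: Col6a2 per Col6a1 was 0.901 (0.758 to 1.07) in fibroblast-like, 0.667 (0.503 to 0.880) in pericyte-like, 0.590 (0.569 to 0.612) in Col3a1-high and 0.552 (0.5397 to 0.564) in Col3a1-low tumor cells, and the pericyte-like interval overlapped those of both tumor groups. Col6a3 per Col6a1 was 0.606 (0.498 to 0.734) in fibroblast-like, 0.430 (0.413 to 0.448) in Col3a1-high and 0.546 (0.534 to 0.559) in Col3a1-low tumor cells, the last within the fibroblast-like interval. Pericyte-like cells differed from the others in Col6a3, with 1.58 (1.27 to 1.98) UMIs per Col6a1 UMI and 1535 CPM.

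Type IV followed the vessels. Col4a1 was at 3296 CPM (2951 to 3669) in endothelial-like and 3196 (2902 to 3510) in pericyte-like cells, which did not differ beyond their intervals, against 190.3 (142 to 250.2) in fibroblast-like, 108 in Col3a1-high and 114 in Col3a1-low tumor cells. Col4a2 was at 1544 and 1425 CPM in the first pair and at 89.6, 88.6 and 82.4 in the others. Col4a2 per Col4a1 UMI, over the shared promoter stretch shown above, was 0.468 (0.385 to 0.568) in endothelial-like, 0.446 (0.375 to 0.529) in pericyte-like and 0.471 (0.277 to 0.779) in fibroblast-like cells, and 0.824 (0.761 to 0.893) and 0.721 (0.695 to 0.747) in Col3a1-high and Col3a1-low tumor cells. The tumor groups thus held more Col4a2 for each Col4a1 than the endothelial- and pericyte-like cells, and the interval of fibroblast-like cells overlapped both. The multiplexins Col15a1 and Col18a1, which sit in basement membranes (the C-terminal end of the Col18a1 chain is released as endostatin), were highest in pericyte-like cells, at 911 and 874 CPM. Endothelial-like cells had 356 and 713 CPM of them and Col3a1-high tumor cells 0 and 6.76. For Col18a1 the pericyte-like level was 1.23 times the endothelial-like level, with an interval that included 1 (0.908 to 1.67).

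The endothelial-like cells came from 2 clusters that differed in these genes. The 11 cells led by Plvap, a protein of the fenestrae of blood capillaries, had 4071 CPM of Col4a1 (3585 to 4604) and 1029.7 of Col18a1 (793 to 1315). The 27 cells led by Ccl21a, with Lyve1, both known from lymphatic vessels, had 2057 (1631 to 2560) and 206 (88.8 to 405). Since these are few and shallow cells, with 62152 and 38894 UMIs in all, the values stand on 253 and 80 Col4a1 UMIs and on 64 and 8 Col18a1 UMIs.

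The first comparison asked how far the collagens follow Col3a1 within the tumor cells. Genes were compared where the groups held at least 20 UMIs together, and called where the levels differed at least 2-fold. Col3a1 named the groups, so its own levels, 2739.7 CPM (2711 to 2769) against 872 (865 to 880), describe the grouping. Of the other 20 members compared, 1 was called higher (5.46% of all 12865 genes compared were), 2 lower (6.57%) and 17 neither. Col5a2 was 2.62-fold higher (2.39 to 2.87) in Col3a1-high cells, whereas Col1a1 was 2.60-fold lower (2.41 to 2.81) and Col1a2 2.55-fold lower (2.08 to 3.17). Just under the limit lay Col16a1, with a ratio of 1.96 (1.86 to 2.05), Col5a1 with 1.92 (1.84 to 1.9993), Col6a2 with 1.89 (1.83 to 1.96) and Col6a1 with 1.77 (1.72 to 1.82). Col4a1, with 0.941 (0.888 to 0.998), and Col4a2, with 1.08 (1.008 to 1.15), were close to equal. The median ratio of the 20 members was 1.29, beside 1.03 over all genes compared.

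These counts are small and move with the settings: over the alternatives the number called higher ran from 0 to 4 and the number called lower from 0 to 4. Over 17 settings, the one reported included, Col5a2 was called higher in 16, Col1a2 lower in 15 and Col1a1 lower in 13. Not all of these settings could change the calls. Using 10 neighbors for the remaining cells left the tumor groups at 449 and 1362 cells. The stricter limit on UMIs could not exclude these genes. A resolution of 0.8 is not among the 17, since it gave no Col3a1-high cluster and so no call. Col14a1, Col12a1 and Col28a1 were expected at under 10 UMIs in the smaller group, where a 2-fold decrease can be missed. The lower call of Col1a1 rested on 1 cluster of 218 tumor cells, numbered 4 below: without it Col3a1-low cells had 95.2 CPM, and the difference was 1.66-fold (1.53 to 1.79). With each Col3a1-low cluster left out in turn, Col1a2 came closest to the limit without cluster 7, of 335 cells. It was then 2.02-fold lower (1.63 to 2.52). Depth and cell cycle moved with the groups too. Col3a1-high cells had a median of 23899 UMIs against 44020, and 11.8 CPM of the proliferation gene Mki67 against 87.4; their part in the ratios was not tested.

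**Figure D3:**
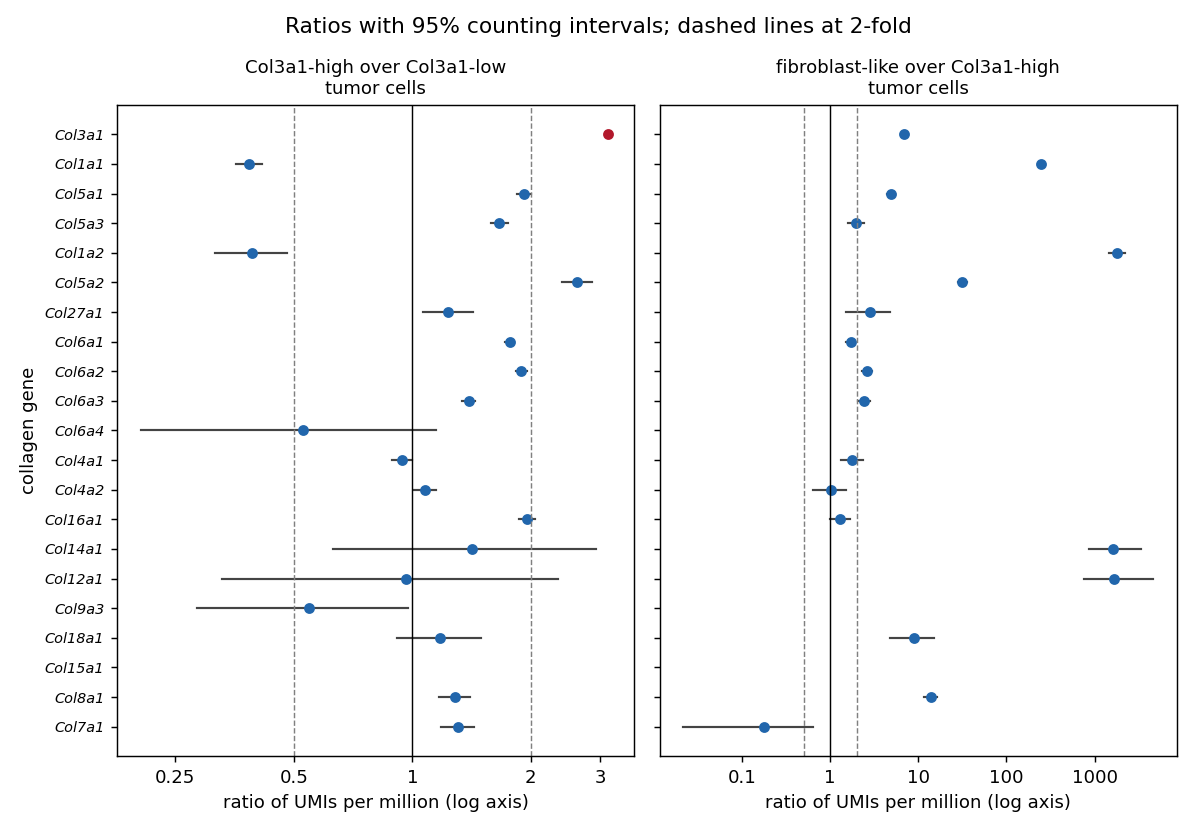
Ratios of UMIs per 1000000 for the collagens with at least 50 UMIs, in Col3a1-high over Col3a1-low tumor cells (left; Col3a1 in red, since it named the groups) and in fibroblast-like over Col3a1-high tumor cells (right), on log axes with 95% counting intervals and dashed lines at 2-fold. Genes not compared or at 0 in one group have no point. Left, Col5a2 lies above 2 and Col1a1 and Col1a2 below 0.5; right, Col1a2 lies at 1793 and Col7a1 at 0.177.

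The tumor cells fell into 8 clusters, ordered by Col3a1. The Col3a1-high cluster 1 had 2739.7 CPM of Col3a1 and 57.5 of Col1a1, and cluster 4, led by Gm15056 and Trp53i11, had 1683 (1652 to 1713) of Col3a1 and 579 (561 to 597) of Col1a1. Cluster 6, led by Spp1, had 671 of Col3a1 but 10.7 (8.33 to 13.5) of Col1a1. Col1a1 thus ranged 54.1-fold over the tumor clusters and Col3a1 9.66-fold, with their highest levels in different clusters. Cluster 5, with the proliferation genes Top2a and Prc1, had 882 of Col3a1 and 112 of Col1a1. Cluster 2, of 111 cells led by Fosb and Malat1 with a median of 3502 UMIs and a mitochondrial share of 7.69%, held the highest level of 17 of the 21 members and the most Xist (72.8 CPM). Its Col3a1 level, 2675 CPM (2530.3 to 2825), did not differ from that of cluster 1 beyond the intervals, and it was counted among the Col3a1-low cells. Leaving it out changed the Col1a1, Col1a2 and Col5a2 ratios little, to 2.54- and 2.48-fold lower and 2.67-fold higher. Cluster 3, of 26 cells, was led by the leukocyte genes Cd52 and Fcer1g.

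**Figure D4:**
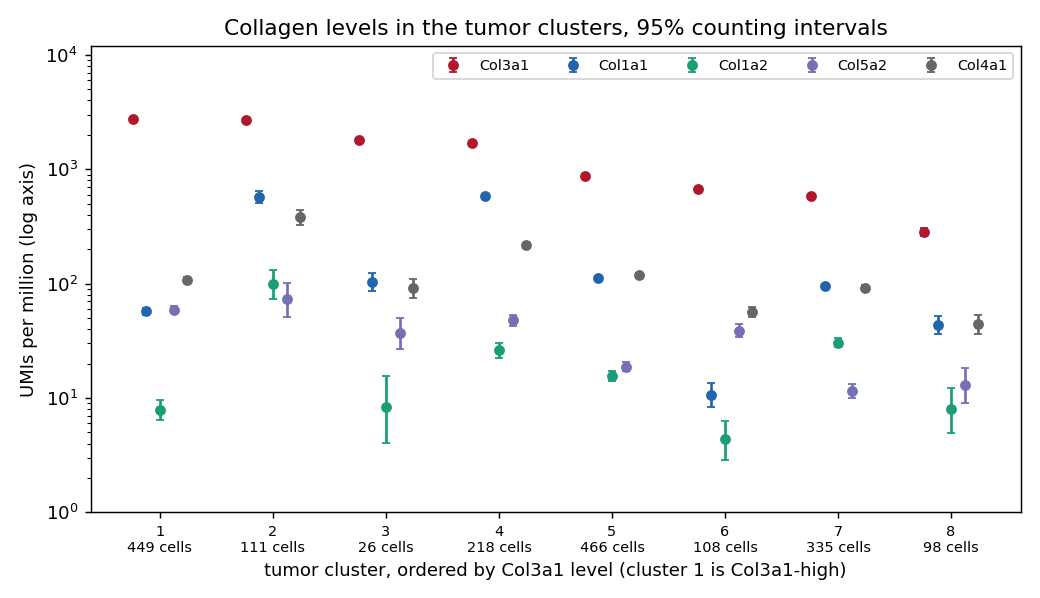
UMIs per 1000000 (log axis) of 5 collagens in the 8 tumor clusters, ordered by Col3a1, with 95% counting intervals. Col1a1 is highest in clusters 2 and 4 (576 and 579) and lowest in cluster 6 (10.7), while Col3a1 is highest in cluster 1 (2739.7) and lowest in cluster 8 (283).

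Cell by cell, Col3a1 was graded. The 5th percentile of tumor cells was 56.7 CPM, the median 897 and the 95th percentile 5984, and 48 of 1811 cells had no Col3a1 UMI. The Col3a1-high cluster gave 52.5% of the 362 tumor cells with most Col3a1 and 11.02% of the 363 with least, so cluster and level overlap only in part. Ordering the same cells by Col3a1 and summing each of 5 equal parts, Col5a2 was at 7.81 CPM in the lowest and 116 in the highest part (14.8-fold), Col1a1 at 28.8 and 384 (13.3-fold), Col6a2 at 67.0 and 614 (9.16-fold) and Col5a1 at 57.4 and 394 (6.86-fold). Col4a1 was at 66.0 and 184 CPM (2.79-fold), Col8a1 at 45.1 and 56.8 (1.26-fold) and Col1a2 at 11.6 and 16.4 (1.41-fold). Rhox5, no collagen, was at 659 and 639.6 CPM, but Shisal2b, the other tumor marker, fell from 306 to 96.0 CPM. Shisal2b was at 84.0 CPM in Col3a1-high and 235.8 in Col3a1-low tumor cells. These parts pool the clusters, and 67.8% of the tumor Col1a1 UMIs lay in 182 of the 1811 cells. Within each cluster, a split chosen after seeing the data, the cells above their cluster's median Col3a1 level had more Col1a1 than those below in 7 of 8 clusters by the interval, with ratios from 1.07 in cluster 3 to 3.44 (2.92 to 4.08) in the Col3a1-high cluster 1, and 3.18 (2.98 to 3.41) in cluster 4. Col5a2 did so in 7 of 8 too, with ratios from 1.66 to 5.63, and Rhox5 in 0 of 8, with ratios from 0.878 to 1.17. Rhox5 was lower by the interval in 2 of 8, at 0.878 (0.841 to 0.917) in cluster 1 and 0.915 (0.868 to 0.965) in cluster 4. In these clusters the cells above the median were shallower, with median depths of 20626 against 31835 UMIs and 25615 against 36659. Col1a1 was thus higher with Col3a1 within most clusters although it was lower in the Col3a1-high cluster as a whole. The parts share 1 library, and the median depth of their cells was 44845 UMIs in the lowest, 51335, 47112 and 37150 in the next 3 and 19205 in the highest. The values describe these cells, and the part of depth in them was not tested.

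**Figure D5:**
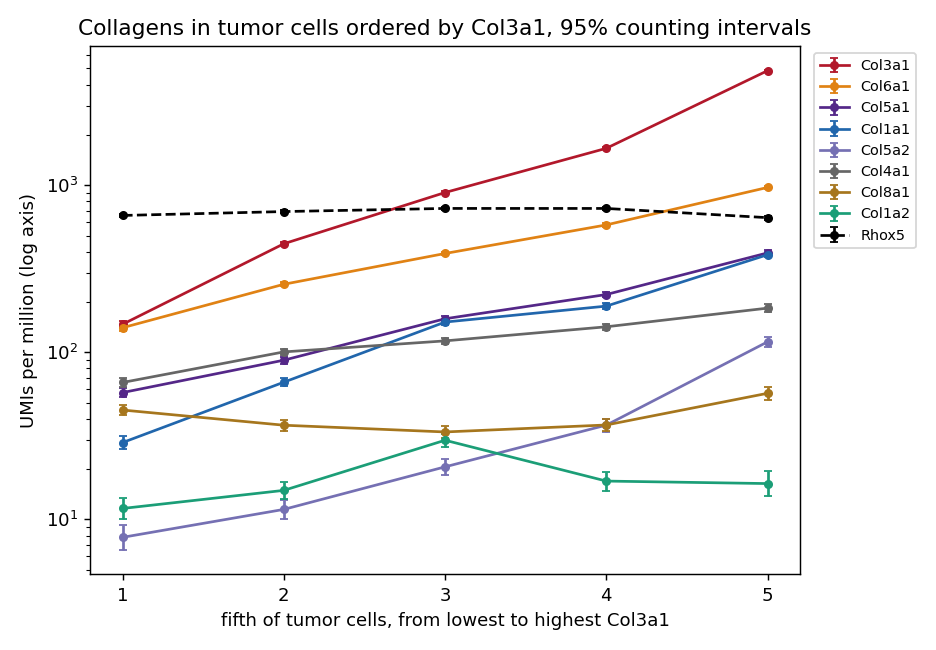
UMIs per 1000000 (log axis) of 8 collagens and of Rhox5 (dashed) in 5 equal parts of the 1811 tumor cells ordered by their Col3a1 level, with 95% counting intervals. Col1a1 goes from 28.8 to 384 and Col5a2 from 7.81 to 116, while Col8a1 ends at 56.8 and Rhox5 at 639.6.

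The second comparison set the host fibroblast-like cells against the Col3a1-high tumor cells. Of 21 members compared, 15 were called higher in fibroblast-like cells (22.4% of 11010 genes were), 1 lower (12.1%) and 5 neither, with a median ratio of 6.87 for the 20 members other than Col3a1 and 1.25 for all genes. Col15a1, Col8a2 and Col11a1 were at 0 in Col3a1-high cells and passed the limit on UMIs through the fibroblast-like cells alone, so that they could only be called higher. Of the 18 members with UMIs in both groups, 12 were called higher and 1 lower, beside 24.8% and 13.1% of the 9842 genes with UMIs in both. Col3a1, counted in the 15 and the 12, had been used to choose the Col3a1-high cells, so its 6.90-fold difference (6.69 to 7.10) depends on that choice. The choice took the tumor cluster with most Col3a1, and Col3a1-low tumor cells had 872 CPM against 18892 in fibroblast-like cells. Col8a1 was 13.9-fold (11.7 to 16.4) and Col5a1 4.90-fold (4.36 to 5.48) higher in fibroblast-like cells, whereas Col1a1 was 248-fold (229 to 269), Col1a2 1793-fold (1469 to 2212), Col14a1 1609.8-fold (865 to 3387) and Col12a1 1674-fold (757 to 4612) higher. The Col3a1-high levels of Col1a2, Col14a1 and Col12a1 (7.87, 0.795 and 0.477 CPM) did not exceed those of either leukocyte group beyond the intervals. T and NK-like cells held only 1 UMI of Col14a1 and 0 of Col12a1, and myeloid-like cells had 36.7 CPM of Col14a1. The leukocytes therefore could not show a difference for Col14a1, nor the T and NK-like cells for Col12a1. No free RNA was removed, and its part in the ratios of these 3 genes was not tested. Col15a1, at 0 UMIs in Col3a1-high tumor cells, was at least 594.5-fold higher against a floor of 3 counts over the group (lower interval limit 460.4). Col4a2 had a ratio of 1.0102 (0.645 to 1.51), Col16a1 of 1.30 (0.994 to 1.67) and Col6a1 of 1.70 (1.51 to 1.92). Only Col7a1 was called lower, 5.64-fold (1.55 to 46.7), from 2 fibroblast-like UMIs. This direction turned in 1 of 17 settings, the one reported included. With no mitochondrial limit, which made the group 89 cells, Col7a1 was 2.23-fold higher in fibroblast-like cells, at 95.3 against 42.7 CPM. Several settings could not turn it. The fold of 3, the stricter limit on UMIs and leaving out Col3a1-low clusters repeated the reported ratio of 0.177. With 267990 UMIs in fibroblast-like cells, a member that is lower there can be missed: 7 of the 21 were expected at under 10 UMIs. The 37 cells came from a cluster of 24 with 251313 UMIs and one of 13 with 16677, in which Col3a1 was at 19418 (18877 to 19971) and 10973 (9441 to 12683) CPM.

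The third comparison set endothelial-like against fibroblast-like cells. Of 19 members compared, 4 were called higher (16.0% of 2975 genes were), 15 lower (20.6%) and 0 neither. Col14a1, Col12a1, Col8a2 and Col11a1 were at 0 in endothelial-like cells and could only be called lower. Of the 15 members with UMIs in both groups, 4 were called higher and 11 lower, beside 15.3% and 17.5% of the 2808 genes with UMIs in both. Col4a1 was 17.3-fold (12.9 to 23.7), Col4a2 17.2-fold (11.2 to 27.7), Col18a1 11.9-fold (6.87 to 22.0) and Col15a1 2.51-fold (1.55 to 4.07) higher in endothelial-like cells. Col3a1 was 83.0-fold lower (55.3 to 131) and Col1a1 481-fold (164 to 2333), from 23 and 3 UMIs. Col8a2 and Col11a1 were expected at under 10 endothelial-like UMIs. Among the rare members, Col13a1, a transmembrane collagen, had 16 of its 27 UMIs in endothelial-like cells, and Col8a2 and Col11a1 had 27 of 30 and 25 of 29 in fibroblast-like cells.

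Leukocytes were set beside these groups. In myeloid-like cells Col3a1 was at 114 CPM (109 to 120.0), and 66.8% of them had a UMI, or 186 of 1302 after thinning each cell to 1000 UMIs (22 shallower T and NK-like cells were left out of the thinned shares). T and NK-like cells, which should lack the gene, had 148 CPM (122 to 178), with a UMI in 50.3% of cells unthinned and in 25 of 125 thinned cells, at median depths of 10140 and 4427 UMIs. The thinned myeloid-like share was not above the T and NK-like share and is not read as expression. Thinning does not make the share of free RNA equal between cells of different depth, and its part was not tested. Against the tumor, fibroblast-, pericyte- and endothelial-like cells pooled, the myeloid-like level was 9.15% for Col3a1 (8.71 to 9.62), 9.16% for Col6a1, 10.5% for Col1a1, 9.06% for Col4a1 and 11.7% for Col1a2. It was 12.7% for Col6a3, 13.5% for Col16a1 (11.7 to 15.6) and 18.5% for Col7a1 (14.8 to 22.9), the highest of 18 members under 50%, and 4.82% for Col8a1, the lowest. The 4 genes that are no collagens and were measured the same way lay at 5.38% (Rhox5), 5.64% (Sparc), 5.78% (Dcn) and 6.56% (Shisal2b, 5.67 to 7.57). For 16 of the 21 members the interval lay above all 4 of these values, though that of Col6a2 began at 7.29%, within the Shisal2b interval. In T and NK-like cells the share was 11.9% for Col3a1 (9.79 to 14.3), 11.4% for Col6a1, 9.68% for Col1a1, 15.8% for Col4a1 and 12.9% for Col1a2. The 4 other genes lay at 7.92% (Rhox5), 8.08% (Sparc), 9.53% (Dcn) and 13.7% (Shisal2b, 8.57 to 20.7) there. Such shares were thus not particular to myeloid-like cells. The source of the differences was not tested.

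Col14a1, which coats the surface of fibrils, stood apart. Myeloid-like cells had 36.7 CPM of it (33.6 to 39.995), from 516 UMIs in 317 of 1302 cells, which was 705% (617 to 805) of the level in the pooled tumor and stromal cells. T and NK-like cells had 1 UMI (1.30 CPM, 0.0329 to 7.25), Col3a1-high tumor cells 0.795 CPM (0.381 to 1.46) and fibroblast-like cells 1279.9 (1148 to 1423). Within the myeloid-like cells, the cluster led by Apoe and Arg1 had 32.9 CPM (29.6 to 36.4) and that led by Arl6ip1 54.2 (45.9 to 63.7), while 23 cells led by Retnla had 0 of 149952 UMIs (interval 0 to 24.6 CPM) but 420 CPM of Col3a1 (323 to 538). Col15a1 was at 4.05 CPM (3.07 to 5.25) in myeloid-like cells, or 145% (107 to 196) of the pooled cells, with 0 UMIs in T and NK-like cells (interval 0 to 4.80 CPM). The last 2 intervals in CPM overlap, so myeloid-like cells were not shown to exceed T and NK-like cells in Col15a1.

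Making a collagen needs further enzymes, and lists of them were counted in the same comparisons. Between Col3a1-high and Col3a1-low tumor cells, where 5.46% of all genes compared were called higher and 6.57% lower, 0 of 12 hydroxylation and glycosylation genes and 0 of 8 folding and export genes were called, counts too small to differ from those shares. Serpinh1, the collagen chaperone Hsp47, was at 787.8 and 789 CPM, and Ppib, a prolyl isomerase of the same complex as Crtap, at 1122 and 913. In the other lists 1 of 4 propeptide, 1 of 5 cross-linking, 1 of 7 receptor and 0 of 7 degradation genes were called higher and 0 lower. These counts too are too small to differ from those shares. The calls were Bmp1, which removes the C-terminal propeptide of fibrillar collagens, at 74.2 against 31.9 CPM (2.33-fold, 2.15 to 2.52), Loxl1, an enzyme of cross-linking, at 14.9 against 3.60 (4.16-fold, 3.41 to 5.07), and the collagen-binding integrin chain Itga1, at 1.59 against 0.575 (2.76-fold, 1.52 to 4.90).

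Against Col3a1-high tumor cells, all 4 cross-linking genes compared were called higher in fibroblast-like cells, beside 22.4% of all genes compared (and 12.1% called lower). Lox was at 1392 against 0.636 CPM (2188-fold, 1099 to 5106) and Loxl1 at 821 against 14.9 (54.9-fold, 45.0 to 67.1). Of 5 propeptide genes 4 were called higher, among them Adamts2, which removes the N-terminal propeptide of types I and III, at 317 against 0.0795 CPM, the latter from 1 UMI (ratio 3989, 697 to 1.594e+05), and Pcolce, a helper of Bmp1, at 981 against 326 (3.01-fold, 2.65 to 3.41). Of 8 folding genes 3 were called higher, and of 13 hydroxylation genes 3 higher and 1 lower, the latter close to the shares over all genes; Serpinh1 was at 2328 CPM (2.96-fold, 2.72 to 3.20), while P4hb, a subunit of prolyl 4-hydroxylase, was at 806 against 623. P4ha3, another subunit, was at 287 CPM against 0 UMIs, so that it could only be called higher. Of 7 degradation genes 4 were called higher, with Timp1 at 1664 against 159 CPM, while Timp2 was at 873 against 1323. Mmp2, at 809.7 against 43.5 CPM, was among these 4. It was also in the marker list that named the fibroblast-like cells, so its call is no separate result. Of 5 receptor genes 2 were called higher; the collagen receptor Ddr2 was at 123 against 80.5 CPM. Lair1, an inhibitory collagen receptor of leukocytes, reached 221 CPM in the myeloid-like group and 0.875 in Col3a1-high tumor cells.

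Beside 20.6% of all genes compared called lower and 16.0% higher, endothelial-like cells were lower than fibroblast-like cells in all 4 cross-linking, all 4 propeptide and all 5 folding genes compared, in 7 of 12 hydroxylation genes (1 higher, Plod1), in 5 of 7 degradation genes (1 higher, the inhibitor Timp3) and in 2 of 4 receptor genes (1 higher, Itga1). Loxl1, Loxl3, Adamts2, Pcolce2, P3h3, P4ha3, Mmp2, Ctsk and Mrc2 were at 0 in endothelial-like cells. They passed the limit on UMIs through the fibroblast-like cells alone and could only be called lower. Mmp2 was also in the marker list that named the fibroblast-like cells. Itga1 was at 1124 CPM in pericyte-like, 277 in endothelial-like and 26.1 in fibroblast-like cells.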

How the data were processed

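One library (10x 3' chemistry, v3.1) was made from the control pool of 5 tumors. The values deposited by the authors are raw UMI counts per gene and called cell. The file header names Cell Ranger 5.0.1 and the methods another version; the genome was GRCm38/mm10. Cells with under 200 genes or over 20% mitochondrial UMIs (667) were removed, and 197 cells with the highest share of simulated doublets among their neighbors were removed (0.8% per 1000 called cells). After scaling each cell to 10000 and taking logs, 2000 variable genes without collagens, 30 principal components and 20 neighbors went into Leiden clustering at resolution 0.5.

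The members, lists and marker rules were chosen with earlier results of these data known. Clusters with a median depth under 1/3 of the library's and without a marker among their 10 leading genes stayed unnamed. As no cluster reached 3 times the Col3a1 level of the others, tumor cells were clustered again (1000 genes, 15 components); this step, the minimum of 20 cells and the second clustering of remaining cells were set after the clusters had been seen. That clustering was tried with 20, 10 and 6 neighbors, and 6 was kept because it separated pericyte-like from fibroblast-like cells. A list named a cluster with at least 3 genes raised (5 UMIs, 2-fold). Members with at least 50 UMIs are named with values.

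UMIs were summed over groups. Intervals (95%) are exact Poisson for a level, exact conditional binomial for a ratio and Clopper-Pearson for a share. A call is a ratio of at least 2 among genes with at least 20 UMIs in the compared groups together, with 3 counts as floor for a group at 0. The calls were tested on simulated counts. The first criterion, over all changed genes, failed for decreases in fibroblast-like cells, and it was then restricted by depth: recovery was near complete where at least 10 UMIs were expected in the smaller group and poor for decreases below that, so members expected below 10 are counted in the text. Positions are from GENCODE M21; promoters matched 35 of the 44 members. Alternatives were limits of 10% or none on mitochondrial UMIs, 500 genes, doublets kept, collagens allowed in the clustering, resolutions of 0.3 and 0.8, 20 components, 3000 variable genes, another seed, means over cells, 50 UMIs, a fold of 3 and thinning to 1000 UMIs. Clustering used leidenalg 0.10.2 on igraph 0.11.9, intervals scipy 1.17.1, neighbors scikit-learn 1.9.0, and tables and plots pandas 2.3.3, numpy 2.4.6 and matplotlib 3.10.9, under Python 3.11.15.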

Additional observations from a re-analysis of the deposited data

How the results depend on the processing

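No paired analysis was possible because there is 1 library. Intervals of counting error are narrow, so small shifts of cells between groups exceed them. The collagen level of Col3a1-high tumor cells, 5060 CPM, became 4869 with a 10% mitochondrial limit, 5263 with none, 5369 with 500 genes, 4988 with doublets kept, 5174 with collagens in the clustering, 5126 at resolution 0.3, 4960 (4959.8) with 20 components, 6032 as a mean over cells and 6049 thinned. That of fibroblast-like cells, 57211, became 54635, 29444, 55711 and 42476 under the first 4 of these, 54885 at resolution 0.3, 58843 with 20 components, 58624 with 10 neighbors and 60647 thinned; with no limit the group held 89 cells instead of 37, and with no limit or 10 neighbors no pericyte-like cells were separated. Myeloid-like cells moved from 346 CPM to 365 with doublets kept, 372 at resolution 0.3, 403 as a mean and 412 thinned.

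Between tumor groups, 1 member was higher; this became 2 with the 10% limit, collagens in the clustering, resolution 0.3, means or thinning, 3 with no limit, 4 with 500 genes or without tumor cluster 4, and 0 at a fold of 3. The 2 lower members became 4 with no limit, doublets kept, 3000 genes or another seed, 1 thinned or without tumor cluster 4, and 0 at a fold of 3. Fibroblast-like against Col3a1-high cells, the 1 lower member became 0 with no limit, where Col7a1 turned to 2.23-fold higher, or thinned. The number called higher there ran from 12 to 17. Between endothelial-like and fibroblast-like cells the number called higher ran from 2 (thinned) to 5 (resolution 0.3), and the number called lower from 11 to 15. Col1a2 per Col1a1 UMI was 0.109 in Col3a1-high cells with 500 genes and 0.933 in fibroblast-like cells thinned. Leaving out tumor cluster 4, leaving out the shallow tumor cluster of 111 cells and using 10 neighbors were chosen after seeing the data. The cause of these shifts was not tested. At resolution 0.8 no tumor cluster reached the Col3a1 limit, so the comparisons with Col3a1-high cells could not be computed there, while endothelial-like against fibroblast-like cells again gave 4 higher and 15 lower.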
